A study of Rattus norvegicus with 4 samples.

Results

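Hi-C records which places in the genome lay close together in the nucleus. Here it was used to describe 5129 bins of 100 kb, called A-like below, out of 25647 bins with an eigenvector on the 20 numbered rat chromosomes. The bins were chosen from the balanced, merged Lenti-GFP matrix. On each chromosome, contacts were divided by the mean at their distance and the first eigenvector of their correlation matrix was taken. Its sign was that of a positive correlation with raw contacts per bin (all 4 libraries summed), and the 20% of bins with the highest values became members. The cells were primary rat Schwann cells, the glia that wrap the axons of peripheral nerve, from sciatic nerve, cultured with forskolin and heregulin. Both groups had received a lentivirus for 48 hours at 2 units per cell with polybrene. Lenti-AS overexpressed the Egr2-AS-RNA, an antisense RNA of the promoter of Egr2, a transcription factor that directs myelination, and Lenti-GFP was the control virus with GFP. By the study's methods the antisense RNA sat in a DsRed lentiviral vector and the control was an AcGFP vector of the same maker, so the vectors differed in more than the antisense RNA. There were 2 libraries in each group, and no library of uninfected cells was compared. The labels call the samples independent without naming separate cultures or animals, so differences are read only against the spread between libraries. Where a position is given, it is in the rn6 build and counted from 1.

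As background, chromatin of interphase nuclei separates into 2 kinds of compartment. Stretches of one kind meet each other across long distances and between chromosomes, and avoid the other kind. The A compartment is generally rich in genes, open and transcribed and lies in the nuclear interior, while the B compartment is generally compact, late replicating and often at the nuclear lamina. The first eigenvector of the contact correlation separates the kinds, but its sign is arbitrary and has to be set from other data.

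The eigenvector explained between 7.57% (chromosome 1) and 24.5% (chromosome 11) of the variance of a chromosome's correlation matrix. The correlation with raw contacts that fixed its direction was weakest on chromosome 17 (0.172) and strongest on chromosome 5 (0.433). Its correlation with position along the chromosome ran from -0.338 (chromosome 17) to 0.459 (chromosome 19), and was weakest on chromosome 1 (0.00737). On chromosomes 17 and 19 position went with the eigenvector more strongly than raw contacts did (0.172 and 0.297). The part of position in the choice of members was not tested. With each chromosome scaled to a spread of 1, the member just inside the threshold had an eigenvector of 0.764 on chromosome 15 and 1.13 on chromosome 12, the ends of the range, and the bin just outside lay at 0.759 and 1.12 there. The highest eigenvector was 1.95, at chr2:140500001-140600000. It was followed by chr1:141400001-141500000 at 1.92, chr4:77400001-77500000 at 1.86, and chr1:167000001-167100000 and chr1:174600001-174700000 at 1.83 each. These values chose the members and are given as a description. Whether the members hold more genes or more open chromatin was not tested here, since no annotation of the build of the files was used, so the name A-like rests on the sign rule alone. Contacts measure no RNA, so the label Schwann cell could not be checked against marker genes.

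The Lenti-GFP libraries were deeper than the Lenti-AS libraries (94956821 and 110770015 against 74811640 and 70488877 contacts), and the share of trans contacts, those between different chromosomes, was 12.64% and 12.78% against 13.03% and 12.97%. In neither measure did the groups overlap. The median member held 6859 and 7788.5 contacts in Lenti-GFP and 5233.5 and 4895.0 in Lenti-AS. Of the members, 5128 passed the minimum of 0.25 of the median contacts per bin and 1 did not.

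Trans contacts give the view of these bins that is most independent of how they were chosen, because the eigenvector used contacts within chromosomes. They entered only through the balancing and the raw totals that set the sign. Members of different chromosomes met each other more often than their trans totals predicted. The observed contacts over those expected from the trans totals of both bins, within each pair of chromosomes, were 1.85 and 1.91 in Lenti-GFP and 1.88 and 1.89 in Lenti-AS. Members and the 5129 bins of the bottom eigenvector 20% avoided each other, with ratios of 0.347 and 0.347 in Lenti-GFP and 0.412 and 0.408 in Lenti-AS. Members and the bins in between also met less often than expected, at 0.856 and 0.856 against 0.863 and 0.863, and between 0.785 and 0.915 by chromosome. The bottom 20% also met itself more often than expected (1.82 and 1.77 against 1.63 and 1.64), so the trans ratios separate the classes without saying which of them is A. Because every ratio is taken against the same totals, the values of the classes in a library are tied to each other.

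**Figure D1:**
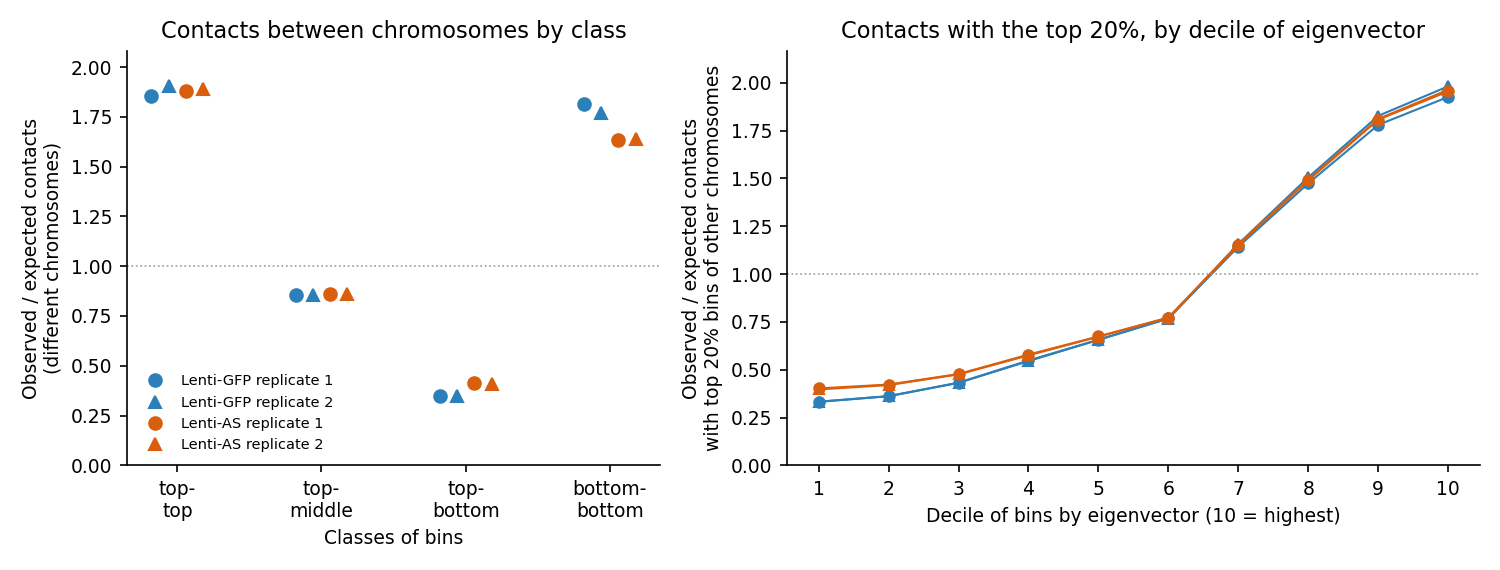
Observed over expected trans contacts (no unit, 1 is the expectation from the trans totals of the bins) for each of the 4 libraries, with Lenti-GFP in blue, Lenti-AS in orange, circles for replicate 1 and triangles for replicate 2. The left panel gives pairs of classes and the right panel gives the contacts of each eigenvector decile with the members, rising from 0.332 in the lowest decile to 1.95 in the highest for Lenti-GFP, with Lenti-AS above Lenti-GFP at the low end.

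The preference for members followed the eigenvector over its whole range. In Lenti-GFP the mean ratio of contacts with members rose in every step, from 0.332 in the lowest decile of bins over 0.656 in the fifth and 1.15 in the seventh to 1.80 and 1.95 in the top 2 deciles. Lenti-AS gave 0.399, 0.673, 1.15, 1.81 and 1.96 in the same deciles. The ratio of Lenti-AS to Lenti-GFP was 1.20 in the lowest decile, 1.16 in the next, and between 1.00 and 1.03 from the fifth decile upwards.

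Each chromosome showed the same order. On 20 of 20 chromosomes the ratio among members was above 1 in all 4 libraries, from 1.61 on chromosome 17 to 2.16 on chromosome 16, and the ratio with the bottom 20% was below 1, from 0.268 on chromosome 19 to 0.529 on chromosome 17. Chromosome 17 thus had both the lowest preference and the weakest avoidance, and was also the chromosome whose sign correlated least with raw contacts. Among the 190 pairs of chromosomes, 190 had a ratio among members above 1 in every library. Chromosomes 7 and 16 had the highest mean over the libraries, with 2.57, 2.66, 2.58 and 2.68 in Lenti-GFP replicates 1 and 2 and Lenti-AS replicates 1 and 2, ahead of chromosomes 9 and 16 (mean 2.61) and 11 and 13 (mean 2.60). Chromosomes 12 and 17 were lowest, with 1.53, 1.53, 1.49 and 1.49. A chromosome whose sign had been set opposite to the others would have shown ratios below 1 among members, and there was none.

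**Figure D2:**
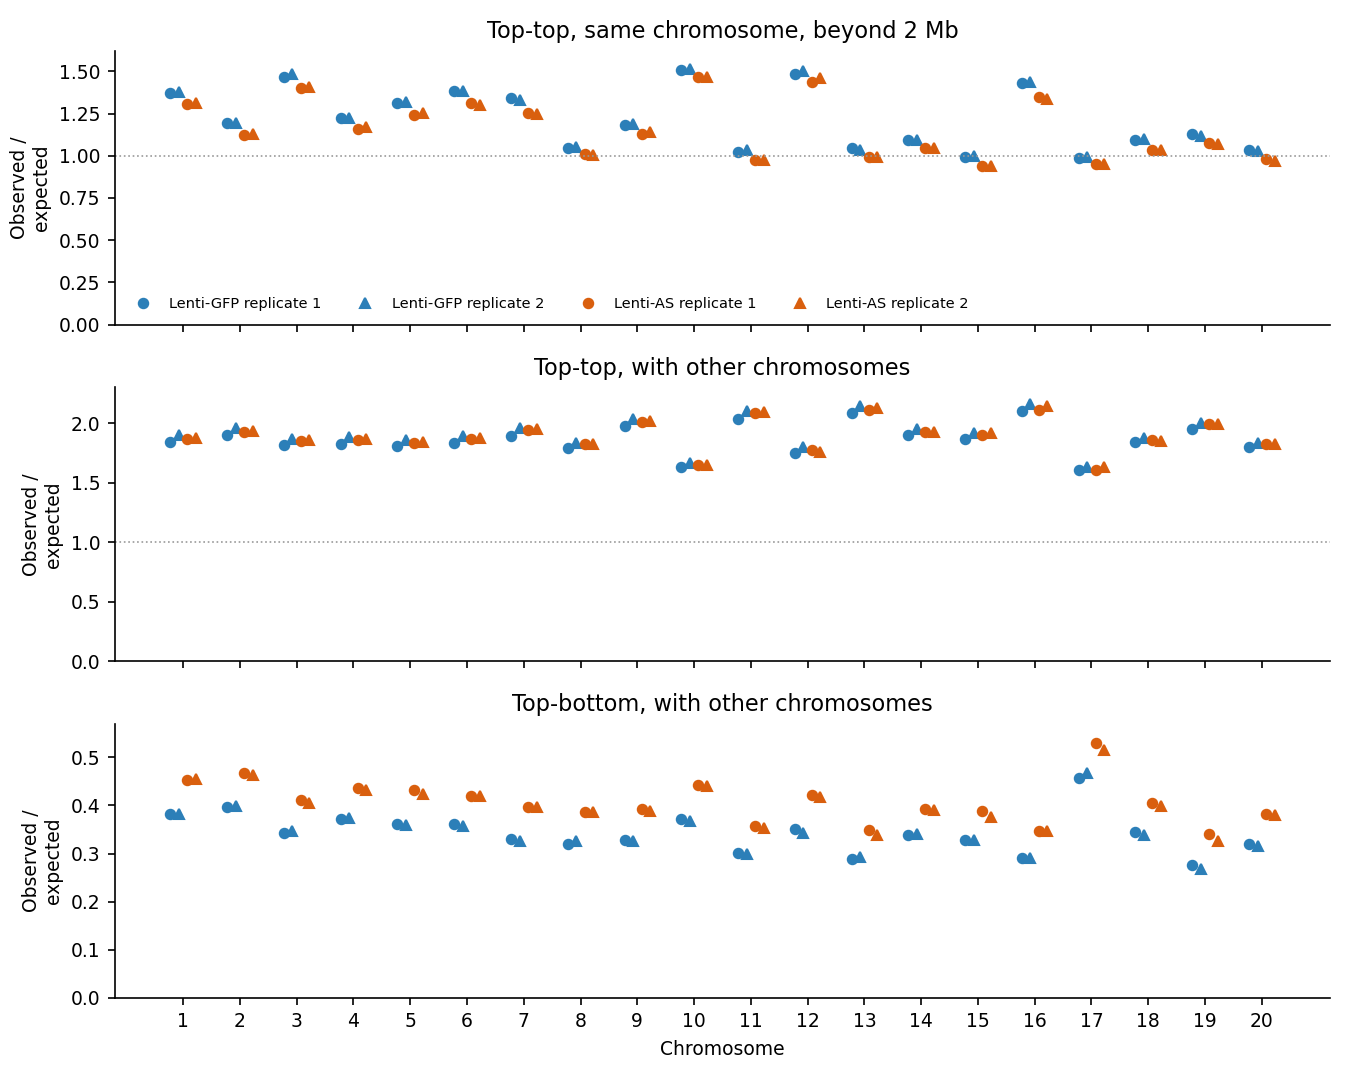
Observed over expected contacts (no unit) by chromosome number for the 4 libraries, with Lenti-GFP in blue, Lenti-AS in orange, circles for replicate 1 and triangles for replicate 2. The panels give contacts among members beyond 2 Mb on the same chromosome, lower in Lenti-AS on 20 of 20 chromosomes, contacts among members in trans, where the groups overlapped on 20 of 20, and contacts of members with the bottom 20% in trans, higher in Lenti-AS on 20 of 20.

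The single members shared this preference, though to different degrees. Members took 43.0% and 42.6% of their own trans contacts with other members in Lenti-GFP and 40.7% and 40.8% in Lenti-AS, while over all bins the share going to members was 23.2% and 22.4% against 21.6% and 21.6%. The lowest member stood at 15.5%, 16.0%, 17.0% and 17.0% and the highest at 58.7%, 58.4%, 58.7% and 59.7% in Lenti-GFP replicates 1 and 2 and Lenti-AS replicates 1 and 2. At or below the share of all bins were 1, 3, 9 and 7 of 5128 members. Members that stood alone, with no neighbouring member, had a median of 36.6% and 36.4% in Lenti-GFP and 34.6% and 34.9% in Lenti-AS. Members in runs of 10 or more had 44.3% and 43.8% against 41.9% and 42.0%, so longer runs went with a stronger preference in all 4 libraries. Among members, the share correlated with the eigenvector at only 0.263 and 0.265 in Lenti-GFP and 0.254 and 0.256 in Lenti-AS. The median member stood at 42.9% and 42.4% against 40.6% and 40.6%. The member with the highest eigenvector, chr2:140500001-140600000, had 41.1% and 44.6% against 38.3% and 37.9%. Of the 5 highest members, the third, chr4:77400001-77500000, had the largest share in each library. It sent 51.2% and 51.2% of its trans contacts to members in Lenti-GFP and 49.2% and 52.0% in Lenti-AS. It held 2668, 2991, 1832 and 1692 trans contacts, against 972.0 in the median member of Lenti-GFP replicate 1 and 729.0 and 683.0 in those of Lenti-AS replicates 1 and 2.

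Between the groups, the trans ratio among members did not separate. Its mean was 1.88 ± 0.0363 over the Lenti-GFP libraries and 1.88 ± 0.0043 over the Lenti-AS libraries (SD, n = 2), a difference of 0.0052 with p = 1.0 (two-sided exact permutation test), and the groups were apart on 0 of 20 chromosomes. The direction depends on the expectation. With the expected contacts taken from the number of bin pairs alone, the ratio was 2.34 and 2.23 in Lenti-GFP and 2.06 and 2.06 in Lenti-AS, so that the mean fell by 9.83% (exact permutation p = 0.333, the smallest that 2 against 2 libraries allow). The share of all trans contact ends that lay in members was 21.6% and 20.7% in Lenti-GFP and 20.0% and 20.0% in Lenti-AS, which the first expectation takes out and the second does not.

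The avoidance of the bottom 20% was weaker in Lenti-AS. Its ratio with members rose by 18.2% in the mean, from 0.347 to 0.410, the Lenti-AS values were above the Lenti-GFP values without overlap on 20 of 20 chromosomes, and the exact permutation p was 0.333. With the number of bin pairs as the expectation the values were 0.325 and 0.324 against 0.386 and 0.384. The bottom 20% received 5.93% and 6.16% of the trans contacts of members in Lenti-GFP and 7.60% and 7.55% in Lenti-AS. Lenti-AS libraries also had the larger share of trans contacts and the lower depth. After thinning all libraries to the contact total of the shallowest, the ratio with the bottom 20% was 0.0635 higher in Lenti-AS. Thinning lowers observed and expected contacts alike, so it cannot show the part of depth. The parts of depth and of the trans share were not tested.

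Counted bin by bin, trans contacts of members were lower in Lenti-AS in small steps spread over most members. The quasi-likelihood test of edgeR, fitted over all 27618 bins tested, called 526 of 5129 members at an adjusted p of at most 0.05, or 10.3%, against 5.91% of all bins. Of these, 1 was higher in Lenti-AS and 525 were lower, where 2.56% of all bins were called higher and 3.35% lower. The median log2 fold change of members was -0.08, a change of -5.63%, and 87.3% of members lay below 0, against a median of 0.00 and 49.3% over all bins. Bins of a library share its shift, so the number of members below 0 does not replicate the difference. The median moved from -0.0836 to -0.0545 without Lenti-GFP replicate 1 and to -0.117 without Lenti-GFP replicate 2. The bottom 20% went the other way, with 390 higher and 21 lower among 411 calls and a median of 0.09. Trans counts here are relative to the library's trans total times its TMM factor (edgeR's normalization factor), so a fall in some bins goes with a rise in others.

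The number of calls depends on the tool and on single libraries. DESeq2 called 1 member (0.0195%) and 22 bins in all (0.0797%), with 562 members at an unadjusted p of at most 0.05, of which 561 were lower, against 1731 of all bins with 1009 lower. At the same unadjusted p edgeR had 1666 members with 1655 lower, against 6371 of all bins with 3254 lower. The median log2 fold change of members was -0.0858 with DESeq2 and -0.0836 with edgeR. Without Lenti-AS replicate 1, edgeR called 14 members (0.273%, against 0.217% of all bins), and without Lenti-AS replicate 2 it called 8 (0.156% against 0.177%). Without Lenti-GFP replicate 1 it called 141 (2.75% against 1.64%), and without Lenti-GFP replicate 2 it called 1617 (31.5% against 19.9%). The share of members called was thus near that of all bins when either Lenti-AS library was left out. All 526 called members kept their direction in each of these fits. They were picked for a difference in the same counts, which favours this, so nothing is read from it. Lenti-GFP replicate 1, whose members held 21.6% of trans contact ends, was farther from the Lenti-AS libraries than replicate 2 at 20.7%. The Lenti-GFP libraries lay farther apart than replicate 2 lay from the Lenti-AS libraries, at 20.0% and 20.0%.

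**Figure D3:**
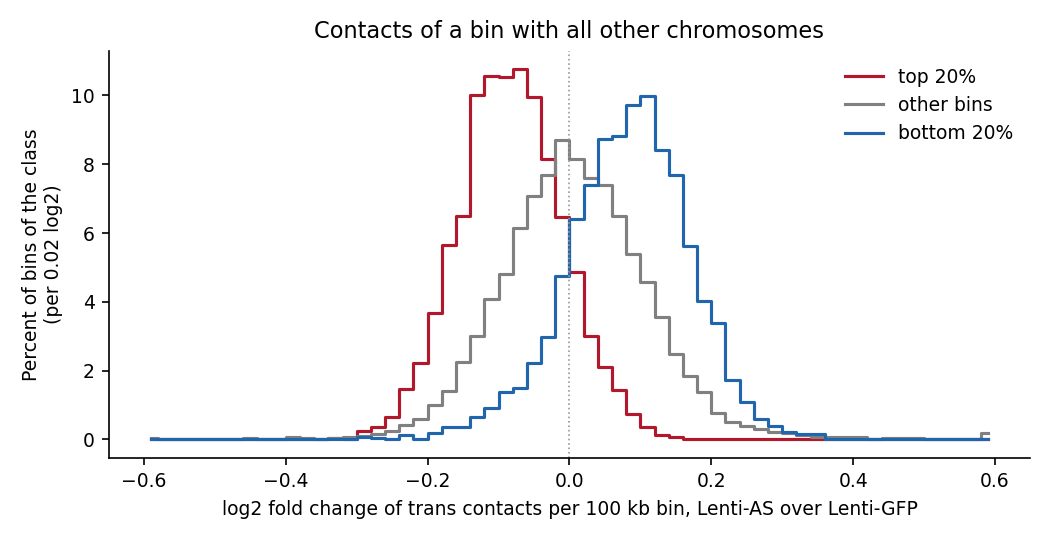
Distribution of the log2 fold change of trans contacts per 100 kb bin, Lenti-AS over Lenti-GFP, for members, the bottom 20% and other bins (y axis, percent of the bins of each class, and the end bars also hold values beyond 0.6 in either direction). Members centre at -0.08 and the bottom 20% at 0.09, and the distributions overlap.

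The median log2 fold change of members was below 0 on every chromosome and in runs of every length. It was lowest on chromosome 16, at -0.11, where 38 of 178 members (21.3%) and 52 of all 901 bins were called lower. It was highest on chromosome 17, at -0.05, with 10 of 178 members (5.62%) and 26 of all 905 bins called lower. On chromosomes 10 and 12 members were not called lower more often than all bins. Chromosome 10 had 14 of 223 members (6.28%) and 73 of all 1121 bins called lower. Chromosome 12 had 9 of 102 members (8.82%) and 52 of all 521 bins. Among members standing alone 33 of 247 (13.4%) were called lower, with a median of -0.09. In runs of 2 to 9 bins it was 227 of 2122 (10.7%, median -0.09), and in runs of 10 or more 265 of 2760 (9.60%, median -0.08). Over all bins 924 of 27618 (3.35%) were called lower, with a median of 0.002.

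The bins below are the called members with the lowest adjusted p in each direction. The strongest was chr6:137600001-137700000, in a run of 4 members, with 1997 and 2280 trans contacts in Lenti-GFP and 1220 and 1069 in Lenti-AS. That is 83.4 and 80.8 against 62.6 and 58.5 CPM (counts scaled to the library's trans total times its TMM factor). The log2 fold change of this bin was -0.44 with an edgeR adjusted p of 5.66e-12. Its call held in all 8 alternative fits, DESeq2 included (adjusted p = 5.09e-06). A member standing alone, chr1:51400001-51500000, had 47.6 and 43.9 against 36.0 and 35.8 CPM (-0.35, edgeR adjusted p = 3.56e-06), and the DESeq2 adjusted p was 0.0956. At chr16:74400001-74500000 the values were 38.1 and 37.3 against 30.6 and 29.5 (-0.32, edgeR adjusted p = 0.000127), with a DESeq2 adjusted p of 0.306 and an edgeR adjusted p of 0.105 without Lenti-AS replicate 2. The 1 member called higher was chr5:76200001-76300000, within a run of 30 members, with 26.6 and 27.9 against 33.5 and 29.8 CPM (0.22, edgeR adjusted p = 0.0319). Its Lenti-AS libraries were above those of Lenti-GFP, replicate 2 by little. The call was lost in 4 of 8 alternatives, with a DESeq2 adjusted p of 0.784 and edgeR adjusted p of 0.133 without Lenti-GFP replicate 1, 0.571 without Lenti-AS replicate 1 and 0.130 without Lenti-AS replicate 2. Genes in these bins are not named, since no gene positions of this build were used.

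Within chromosomes the members' contacts were part of what chose them, so the levels are a description. The Lenti-AS libraries entered the choice only through the raw contacts that set the sign. Contacts among members were balanced, divided by the mean at their distance and pooled over chromosomes. They were above expectation next to each other, below it at middle distances and above it again far apart. From 0.1 to 0.5 Mb the ratio was 1.25 and 1.25 in Lenti-GFP and 1.26 and 1.26 in Lenti-AS. Between 1 and 2 Mb it was lowest, at 0.722 and 0.724 against 0.705 and 0.704. Above 50 Mb it reached 1.82 and 1.81 against 1.71 and 1.72. Beyond 2 Mb the ratio was not above 1 on every chromosome. Chromosome 15 had 0.994 and 0.996 against 0.938 and 0.937, and chromosome 17 had 0.988 and 0.995 against 0.951 and 0.952. Chromosomes 11, 13 and 20 were below 1 in both Lenti-AS libraries. The bottom 20% met itself at 2.66 and 2.66 beyond 2 Mb in Lenti-GFP, more than the members did at 1.24 and 1.24, and members met the bottom 20% at 0.167 and 0.168.

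Distant contacts among members were fewer in Lenti-AS. Beyond 2 Mb the ratio of the Lenti-GFP libraries was 1.24 ± 0.0022 and that of the Lenti-AS libraries 1.18 ± 0.0023 (SD, n = 2). The mean fell by 5.01%, without overlap of the groups on any of the 20 chromosomes. The gap widened with distance: the ratio fell by 1.84% at 0.5 to 1 Mb, fell by 3.82% at 2 to 5 Mb and fell by 5.58% beyond 50 Mb, while at 0.1 to 0.5 Mb Lenti-AS was 0.727% higher after balancing and fell by 0.463% without it, where the groups overlapped. Contacts of members with the bottom 20% beyond 2 Mb rose from 0.168 to 0.182, by 8.46%. Since members were picked in Lenti-GFP, some fall in the other group can come from the choice itself. With members picked by the same rule from the Lenti-AS matrix, the ratio was still 1.23 in Lenti-GFP and 1.18 in Lenti-AS, a difference of -0.0569 against -0.0621. After thinning all libraries to the shallowest the main difference was -0.0610. Since thinning lowers observed and expected contacts alike, it cannot show the part of depth, which was not tested.

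**Figure D4:**
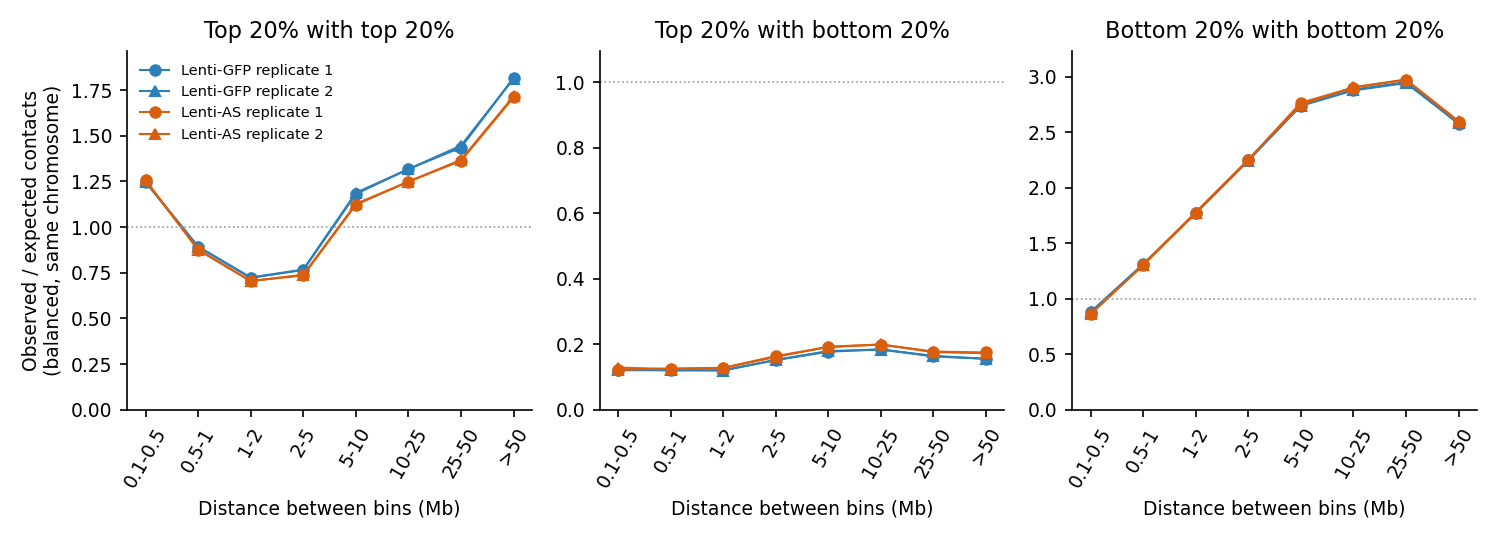
Observed over expected balanced contacts within chromosomes (no unit) by distance class in Mb for the 4 libraries, with Lenti-GFP in blue, Lenti-AS in orange, circles for replicate 1 and triangles for replicate 2, among members, between members and the bottom 20%, and within the bottom 20%. Contacts among members dip to 0.704 at 1 to 2 Mb and rise beyond it, with Lenti-AS below Lenti-GFP from 0.5 Mb outwards.

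The contacts of members were also divided differently over distance, and within chromosomes those of all bins moved in the same direction. Beyond 2 Mb on the same chromosome lay 13.2% and 13.3% of the members' contacts in Lenti-GFP and 12.5% and 12.6% in Lenti-AS, and within the 100 kb bin itself 28.7% and 28.8% against 30.2% and 29.9%. Over all bins the shares were 19.8% and 19.9% against 19.2% and 19.4% beyond 2 Mb, and 23.2% and 23.2% against 23.8% and 23.6% within the bin. The bottom 20% had more than this beyond 2 Mb (27.7% and 27.6% against 27.4% and 27.5%) and less within the bin (18.6% and 18.6% against 18.4% and 18.3%). The trans share of the members fell from 14.95% and 14.9% in Lenti-GFP to 14.7% and 14.7% in Lenti-AS. That of the bottom 20% rose from 15.001% and 15.3% to 16.5% and 16.3%. Over all bins it rose as well, from 15.4% and 15.5% to 15.9% and 15.8%.

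The membership itself changed little. The same rule on the merged Lenti-AS matrix chose 5127 bins, of which 4796 were shared, 93.5% of each list. No member had a negative eigenvector there, the lowest being 0.52, and members that dropped out lay a median of 0.0517 below the threshold and at most 0.293. In the single libraries 91.8% and 92.9% of members in Lenti-GFP and 88.9% and 88.4% in Lenti-AS stayed in the top 20% of their own library, and the mean eigenvector of the members was 1.09 and 1.09 against 1.03 and 1.02. Lenti-GFP values are closer to the members' own by construction. limma called 0 of 5128 members at an adjusted p of at most 0.05, as it called 0.0% of all 24829 bins. The Lenti-GFP eigenvector chose the members, so these counts are a description. With 2 libraries a group, a lack of calls does not show that the eigenvectors were unchanged. At an unadjusted p of at most 0.05, 609 members (11.9%) were lower and 9 higher, against 2827 of all bins (11.4%) lower and 270 higher, and the medians were -0.06 and -0.05. This tilt depends on the scaling. With quantile-normalized eigenvectors 183 members were lower and 80 higher at that unadjusted p, against 1077 and 876 of all 24829 bins, and the median of members was -0.007 (0.002 for members from the Lenti-AS matrix). Without Lenti-AS replicate 1 limma called 32 members (0.624%, against 0.858% of all bins), and without Lenti-AS replicate 2 it called 6 (0.117% against 0.222%).

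Members came in runs. The 5129 bins formed 921 runs with a median length of 0.3 Mb and a mean of 0.557 Mb. Single bins made up 247 runs, and the 170 runs of 10 bins or more held 53.8% of members. The bottom 20% was cut into more pieces, 1107 runs with a longest of 4.4 Mb. The Lenti-AS matrix gave 911 runs, and the single libraries, each with its own eigenvector, gave 990 and 953 in Lenti-GFP and 982 and 1025 in Lenti-AS, which overlap. Members were sparse near chromosome ends, at 147 of the 1158 bins within 3 Mb of either end, or 12.7%, where the rule takes 20.0% of a chromosome.

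The longest run was chr1:162300001-167500000, 52 bins or 5.2 Mb. Its mean eigenvector, computed per library, was 1.44 and 1.43 in Lenti-GFP and 1.38 and 1.36 in Lenti-AS. It sent 43.2% and 43.0% of its trans contacts to members in Lenti-GFP and 39.98% and 40.4% in Lenti-AS. Of its contacts 11.05% and 10.9% were trans, against 11.02% and 11.1%. Next were chr2:184900001-190000000 (51 bins), chr9:97200001-100900000 (37), chr13:67900001-71400000 (35) and chr14:42400001-45800000 (34). The last tied in length with chr11:68600001-72000000 and came first by its mean eigenvector, 1.32 against 1.15 in the merged matrix. Of these the run on chromosome 9 had the highest share of trans contacts to members, 48.1% and 48.0% in Lenti-GFP and 45.2% and 46.2% in Lenti-AS. The run on chromosome 14 had the lowest of the 5, 37.2% and 36.8% against 35.0% and 35.3%. In each of these 5 runs the shares of both Lenti-AS libraries were below those of Lenti-GFP, as they were over all bins. The eigenvectors were too, which the choice of runs in Lenti-GFP favours, so nothing is read from that.

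Whole runs met each other across chromosomes. Among the 20 longest runs, 178 pairs lay on different chromosomes, and their median trans ratio was 2.19 and 2.22 in Lenti-GFP and 2.27 and 2.15 in Lenti-AS, above 1 in 177, 178, 178 and 177 pairs. The highest mean over the 4 libraries was between chr13:50600001-53600000 and chr16:18800001-21400000, at 3.88 and 3.94 from 127 and 132 contacts in Lenti-GFP and 4.33 and 4.55 from 97 and 93 in Lenti-AS. The groups overlapped in the median over the run pairs.

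**Figure D5:**
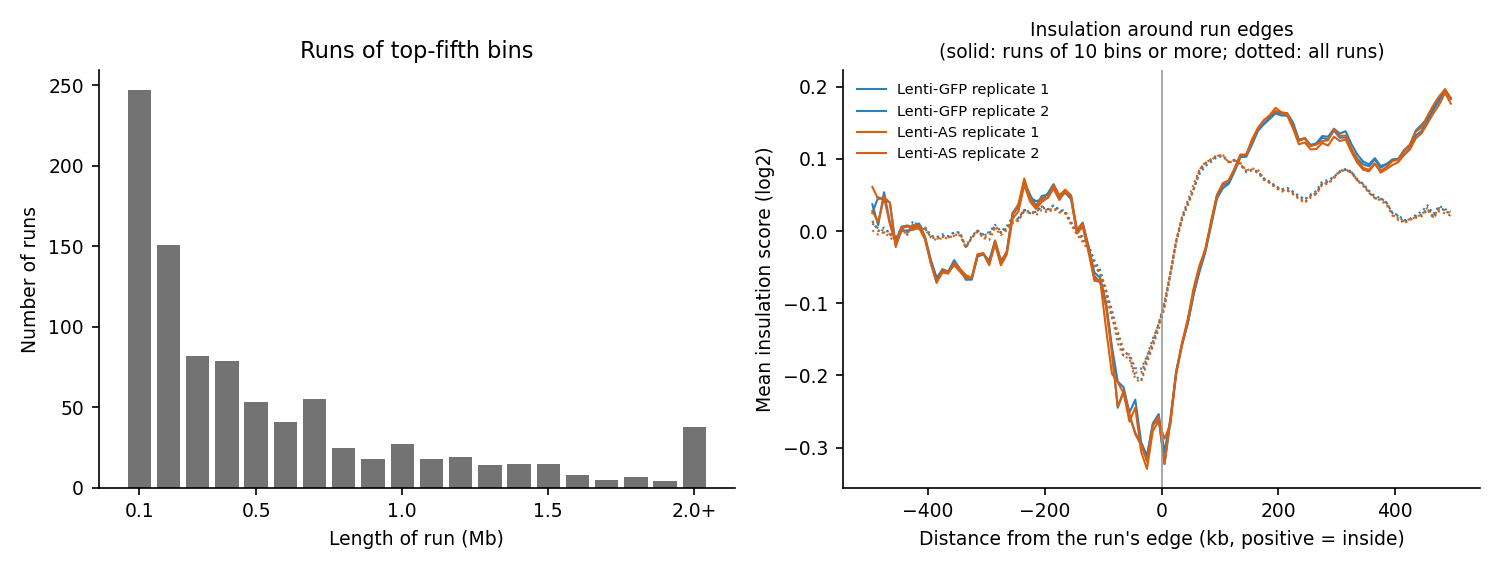
Left, the number of runs by run length in Mb, with runs of 2.0 Mb or more pooled in the last bar. Right, the mean insulation score (log2) by distance in kb from the edge of a run, positive into the run, for the 4 libraries (Lenti-GFP in blue, Lenti-AS in orange), with dotted lines for all runs and solid lines for runs of 10 bins or more, which dip deeper at the edge.

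Insulation describes how freely contacts cross a 10 kb bin within 200 kb, and low values mark boundaries between contact domains. It comes from the same cis contacts as the eigenvector, so its level in members is a description. Members had a mean log2 score of 0.103 and 0.106 in Lenti-GFP and 0.102 and 0.103 in Lenti-AS, above that of all bins, at -0.106 and -0.107 against -0.109 and -0.108. The order turns with the window. Across 500 kb the mean was -0.155 in Lenti-GFP and -0.167 in Lenti-AS for members, below the -0.116 and -0.117 of all bins. Boundaries were dense in them all the same. They held 36.8 and 36.7 boundaries per 1000 bins of 10 kb in Lenti-GFP and 37.9 and 38.1 in Lenti-AS, where all bins held 25.5 and 25.2 against 26.2 and 26.3 and the bottom 20% 12.3 and 11.6 against 13.1 and 13.5. The difference between the groups in members was 1.26 boundaries per 1000 bins, with no overlap and p = 0.333 (two-sided exact permutation test). Over all bins it was 0.878, and in the bottom 20% it was 1.304. After thinning to the contact total of the shallowest library these differences were 1.16 in members, 0.307 over all bins and -0.236 in the bottom 20%, so the difference over all bins shrank and that in the bottom 20% turned. Thinning matched the totals only, not the trans share or the spread over distance. limma called 0 of 48520 bins of 10 kb in members at an adjusted p of at most 0.05, against 0.00219% of all bins called. At an unadjusted p of at most 0.05 there were 1672 in members and 13376 among all 228063 bins, and the bins lower in Lenti-AS were 2.31% of members and 3.43% of all. Leaving out single libraries gave between 1 and 4 calls in members and between 18 and 79 over all bins.

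Edges of runs held boundaries more often than other places. Both come from contacts within chromosomes, the edges through the eigenvector, so the excess is a description. A boundary lay within 30 kb of 28.4% and 28.1% of the 1399 edges that had a score in every 10 kb bin within 30 kb and an eigenvector on both sides in Lenti-GFP and of 29.4% and 27.9% of 1400 and 1399 in Lenti-AS. The other edges of the 921 runs were left out. Between neighbouring members the shares were 23.1% and 23.2% against 23.9% and 23.4%, and between neighbouring bins that were no members 14.1% and 13.9% against 14.6% and 14.4%. At the 238 such edges of the 170 runs of 10 bins or more the shares were 34.5% and 34.5% against 34.5% and 33.2%. The mean score at these edges was -0.288 and -0.280 against -0.281 and -0.288, and 195 kb into the run it was 0.165 and 0.163 against 0.166 and 0.171. The groups overlapped at the edges, so no difference in their insulation was detectable with 2 libraries a group.

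Single pairs of members up to 1.9 Mb apart were compared last. edgeR, with each library's total at the same distance as the offset, called 110 of 35235 pairs at an adjusted p of at most 0.05, or 0.312%, against 0.335% of all 306831 pairs tested. Of these 52 were higher in Lenti-AS and 58 lower, where 0.0968% of all pairs were called higher and 0.238% lower. The members' share in all is near the background, and since the pairs come from the contacts that chose the bins, nothing is read from it. Most called pairs, 50 of those higher and 52 of those lower, lay 100 to 500 kb apart. So did 17871 of the 35235 pairs of members tested. Calls over all pairs were not split by distance, so nothing is read from this. The median log2 fold change of all pairs of members was -0.03 at 100 to 500 kb, -0.07 at 600 to 1000 kb and -0.07 at 1100 to 1900 kb. Over all distances it was -0.042, -0.0216 without Lenti-GFP replicate 1, and 0.004 with offsets that took in each bin's own contacts. The calls were not stable. DESeq2 called 0 of 18334 pairs of members with an adjusted p, and 13 of all 140266 (0.00927%), with 345 and 2773 at an unadjusted p of at most 0.05, where edgeR had 3270 and 27260. Offsets that took in each bin's own contacts gave 3 (0.00851%, against 14 or 0.00456% of all pairs), none of them among the 110, and turned the direction of 30 of the 110. Without Lenti-AS replicate 2 edgeR called 3 (0.00851%, against 0.0440% of all pairs), without Lenti-AS replicate 1 it called 39 (0.111% against 0.1297%), and without Lenti-GFP replicate 1 it called 13 (0.0369% against 0.0649%), each below the background. Without Lenti-GFP replicate 2 it called 87 (0.247% against 0.235%), slightly above it.

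The pairs with the widest change are named by their bins' starts. On chromosome 12, the bins at 16100001 and 17000001 had 19.8 and 21.6 depth-scaled contacts in Lenti-GFP and 4.67 and 4.93 in Lenti-AS (log2 fold change -2.09, edgeR adjusted p = 0.00743). On chromosome 17, 22900001 and 23400001 had 18.9 and 20.1 against 5.84 and 3.69 (-1.999, adjusted p = 0.0157), and on chromosome 4, 122800001 and 124000001 had 21.7 and 20.8 against 7.03 and 6.14 (-1.67, adjusted p = 0.0394). Upwards, chromosome 10 at 55600001 and 56200001 had 36.0 and 34.0 against 50.3 and 75.1 (0.83, adjusted p = 0.0348), with Lenti-AS libraries far from each other. Chromosome 2 at 42400001 and 42600001 had 162.5 and 160.4 against 227.6 and 257.4 (0.58, adjusted p = 0.000186), and chromosome 17 at 40200001 and 40400001 had 123.9 and 133.3 against 175.1 and 181.0 (0.46, adjusted p = 0.0450). The 3 pairs that were lower had fewer than 10 depth-scaled contacts in both Lenti-AS libraries. They met the minimum mean count of 10 through their Lenti-GFP counts. Picking by fold change favours pairs with few contacts, so nothing is read from the size of their fall. None of these 6 pairs passed with offsets that took in each bin's own contacts. The 3 that were higher did not pass with DESeq2, which gave no adjusted p to the 3 that were lower. Leaving out single libraries in edgeR, the pairs on chromosomes 12 and 4 and both on chromosome 17 lost their call in each of the 4 fits (adjusted p from 0.0853 to 0.4498), the pair on chromosome 10 in 3 and the pair on chromosome 2 in 1.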

How the data were processed

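Hi-C (Arima kit, paired reads of 150 bp) was analysed in 4 libraries. Per the labels the authors used HiC-Pro (version not given in the sources used here), and the builds named are rn6 and Rnor_6.0. The deposited counts are raw contacts per pair of 10 kb bins, 1 matrix per library. The deposited balanced signal at 100 kb was merged by group and balanced by the authors with ICE, and the Lenti-GFP signal chose the members. Coordinates come from the deposited bin tables (other values). The merged 10 kb matrices were not used. ICE sets each bin's total equal, so balanced levels carry no coverage.

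The members and lists were chosen with earlier results of these data known. Raw counts were summed to 100 kb and balanced per library with 60 iterations. Trans contacts per bin were tested in edgeR 4.0.16 (quasi-likelihood test, TMM factors, filterByExpr), pairs of bins with a mean count of at least 10 likewise, and eigenvectors and insulation with limma 3.58.1, over all features with group as the only term and Benjamini-Hochberg adjustment. Boundaries were minima with a prominence of at least 0.2. Single values were compared with two-sided exact permutation tests over libraries. Balancing and the eigenvector were tested on a simulated chromosome, and the edgeR and limma fits on simulated counts and values. The steps for class ratios, runs, insulation scores and boundaries, and the DESeq2 fits, were not tested on simulated data. R 4.3.3, DESeq2 1.42.0, Python 3.11.15, numpy 2.4.6 and scipy 1.17.1 were used. Alternatives were DESeq2, other filters, offsets, windows and prominences, no balancing, the top decile, members from the Lenti-AS matrix, thinning, a replicate block and leaving out each library. Named were the 5 longest runs, the 5 highest members, up to 3 called bins a direction by adjusted p, and 3 called pairs a direction by fold change. Further bins and run pairs named as extremes were chosen after their values were seen. Lists of genes drawn up for members could not be placed, and no sequence is printed, since no genome or annotation of the build of the files was used.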

Additional observations from a re-analysis of the deposited data

How the results depend on the processing

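The trans ratio among members differed by 0.0052 between the groups, within the spread of the libraries. It turned to -0.225 with the number of bin pairs as the expectation and ranged from -0.0204 (without Lenti-GFP replicate 1) to 0.0309 without single libraries. The higher ratio of members with the bottom 20% in Lenti-AS kept its direction in 9 of 9 alternatives (0.0611 to 0.0653 without single libraries). The fall of cis contacts among members beyond 2 Mb also kept its direction, at -0.0621 in the main setting and -0.0637 to -0.0605 without single libraries. It was -0.0569 with members from the Lenti-AS matrix, -0.0889 for the top decile and -0.0951 without balancing. Not all alternatives could turn these results. The groups did not overlap in either, so the replicate block and leaving out a library had to keep the direction. Thinning lowers observed and expected contacts alike. Members called for trans contacts numbered 526, then 1 with DESeq2, 464 without TMM factors (9.05%, against 5.82% of all bins), and 8 to 1617 without single libraries. Called pairs of members numbered 110, then 0 with DESeq2, 3 with offsets that held the contacts of both bins, 182 with the replicate block (0.517%, near the 0.484% of all pairs), and 3 to 87 without single libraries. The cause of these differences was not tested. Boundaries per 1000 bins in members differed by 1.17 to 1.34 without single libraries and by 2.61 at a prominence of 0.1, where all bins differed by 2.24 and the bottom 20% by 3.63, and bridging gaps of 1 bin left 650 of 921 runs. Replicate numbers were not taken to pair the samples. The labels name nothing shared, and replicate differences correlated at 5.25e-05 (trans), -0.0101 (eigenvector) and -0.0141 (insulation). These correlations cannot show whether cultures or batches were shared. With the replicate block the trans calls numbered 625 (12.2% of members, against 7.18% of all bins), including all 526, the eigenvector calls 16 (0.312% against 0.753%) and the insulation calls 3 (0.00618% against 0.0162%), against 0 and 0 without it. Without single libraries the eigenvector calls ranged from 0 to 32 and the insulation calls from 1 to 4. Fits that leave out a library assume that the lone sample of its group varies like the other group.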
